A study of Mus musculus with 2 samples.

Results

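The 10 genes described here make or break down cyclic nucleotides: 6 adenylyl cyclases (Adcy1, Adcy2, Adcy3, Adcy5, Adcy8 and Adcy9) and 4 cyclic nucleotide phosphodiesterases (Pde1a, Pde2a, Pde4b and Pde4d). They were chosen by symbol out of 55536 annotated genes, and all 10 were found in the gene and transcript tables. The RNA came from 2 female mice aged 36 days, from the cerebral cortex of the left side, and the strain was B6CASTF1/J, offspring of a C57BL/6J by CAST/EiJ cross, with 1 library for each mouse. The labels give 1 group with biological replicates 2 and 1, and name no treatment and no second tissue or age. Each total RNA library was made from 300 ng of RNA, depleted of ribosomal RNA, strand-preserving and spiked with ERCC control RNAs. With 1 group of 2 mice no comparison between conditions could be tested, so values are given for each mouse, as mean ± SD, or as the ratio of replicate 2 over replicate 1.

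Adenylyl cyclases turn ATP into cyclic AMP. Most are membrane enzymes that are switched on or off by G proteins, and some also sense calcium through calmodulin. Cyclic AMP acts through protein kinase A, the exchange factors of the Epac type and cyclic nucleotide-gated channels, and phosphodiesterases end the signal by hydrolysing cyclic AMP, cyclic GMP or both. In the cerebral cortex this pathway carries signals from dopamine, noradrenaline and other transmitters and takes part in synaptic plasticity.

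The libraries held 35188800 expected counts in replicate 2 and 29417200 in replicate 1, each rounded to the nearest 100. An expected count is the number of reads given to a gene after reads that match several places are shared out, and TPM is the transcript abundance after correction for transcript length and library total. The small cytoplasmic 7SL RNA took 30.1% of all TPM in replicate 2 and 24.3% in replicate 1, and nuclear protein-coding genes together took 41.9% in replicate 2 and 46.9% in replicate 1. Deposited TPM was lower in replicate 2 for all 10 genes, and after rescaling to nuclear protein-coding genes it was lower for 8. The share of all genes with lower TPM was not computed. On library-normalized counts, given below, 7 of the 10 were instead higher in replicate 2, beside 58.9% of all genes, so the direction depends on the scale. All 6 markers of cortical projection neurons and all 6 of inhibitory neurons reached 1 TPM in each library, as did all markers of astrocytes, oligodendrocytes and their precursors, microglia, endothelial cells and mural cells. Of 5 hippocampus markers, 2 reached that level, with a median of 0.83 TPM, while all 5 thalamus markers reached it with summed levels of 31.3 TPM in replicate 2 and 37.97 TPM in replicate 1. The mice differed in several RNA classes: 9 of 15 immediate early genes were at least 2-fold higher in replicate 2, as were 0.277% of all genes compared. All 7 of 7 nuclear noncoding RNAs had ratios below 0, beside 41.1% of all genes, with a median of −0.84 (log2), beside 0.04 for all genes. The median was −0.66 for 5 red blood cell genes and −1.61 for the 2 choroid plexus genes with enough counts.

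All 10 genes were expressed, with at least 1 TPM in both libraries, and their levels spanned 15.6-fold from top to bottom. By mean TPM in the gene tables Pde2a was highest, followed by Adcy1, Pde1a, Adcy2, Pde4b, Adcy5, Pde4d, Adcy9, Adcy3 and Adcy8. Among 12754 expressed nuclear protein-coding genes, ranked by mean TPM, Pde2a stood at 485, Adcy1 at 539 and Adcy8 at 8172. Neighbours in this order had separate ranges in 5 of 9 cases: Adcy1 above Pde1a, Pde4b above Adcy5, Pde4d above Adcy9, Adcy9 above Adcy3, and Adcy3 above Adcy8. The ranges of Pde2a and Adcy1, of Pde1a and Adcy2, of Adcy2 and Pde4b, and of Adcy5 and Pde4d overlapped. In 8 of the 9 neighbouring pairs the order was the same in each mouse, and Adcy5 with Pde4d was the exception. The order depended on the quantifier in places. A second quantifier, whose transcript table the authors also deposited, put Adcy1 first in both mice, with 199 TPM in replicate 2 and 225 TPM in replicate 1, against 190 TPM in replicate 2 and 193 TPM in replicate 1 for Pde2a. It also put the mean of Pde4d (75.7 TPM) above that of Adcy5 (73.4 TPM). Ranges were separate for 7 of 9 neighbouring pairs after rescaling to nuclear protein-coding genes, and for 8 with FPKM or the second quantifier, so which neighbours overlap depends on the unit.

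**Figure D1:**
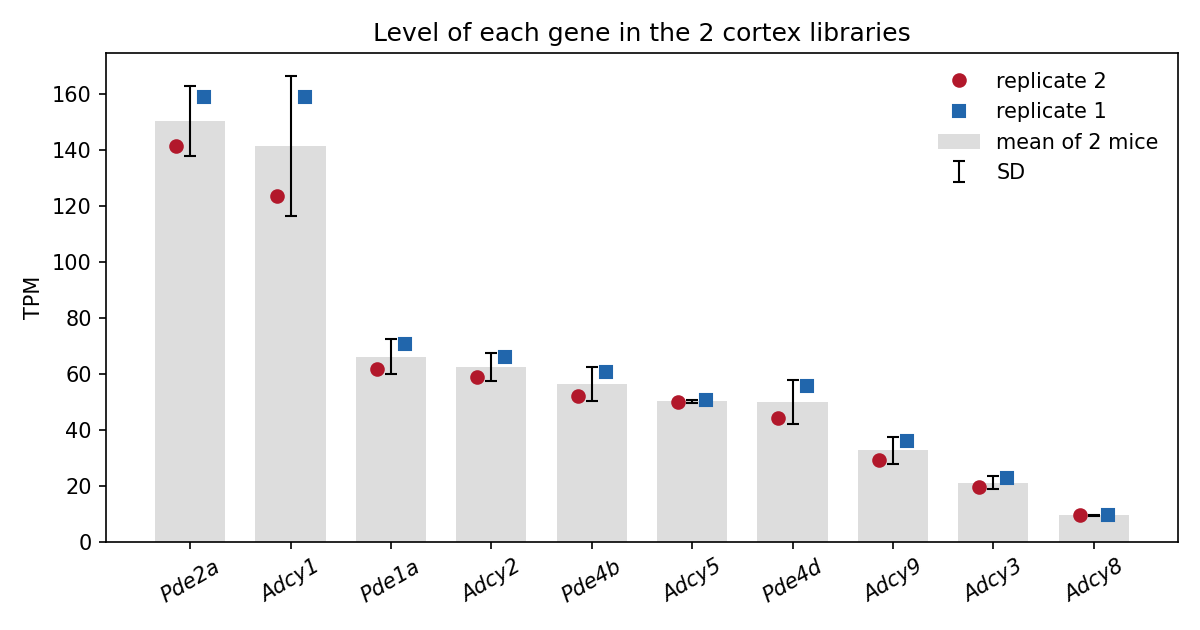
TPM of each gene, with grey bars for the mean of 2 mice, error bars for the SD, red circles for replicate 2 and blue squares for replicate 1. Pde2a and Adcy1 stand above the other 8 genes in both mice, and Adcy8 is lowest at 9.53 TPM in replicate 2 and 9.73 TPM in replicate 1.

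Among the cyclases that calcium and calmodulin stimulate, Adcy1 was abundant and Adcy8 scarce. Adcy1, which lies on mm10 chromosome 11 from 7063489 to 7178506 on the plus strand, had 124 TPM in replicate 2 and 159 TPM in replicate 1 (141.5 ± 24.98 TPM, SD, n = 2). Adcy8, on chromosome 15 from 64697084 to 64922296 on the minus strand, had 9.53 TPM in replicate 2 and 9.73 TPM in replicate 1 (9.63 ± 0.141 TPM, SD, n = 2). The TPM ratio of Adcy1 to Adcy8 was 13.0 in replicate 2 and 16.4 in replicate 1, with a mean of 14.7 ± 2.38. Counts separated this pair further, since Adcy1 drew 38013 reads in replicate 2 and 36136 in replicate 1, against 1576 and 1166 reads for Adcy8 in the same order of mice. That count ratio of 27.6 is not corrected for length, and the mean transcript length in replicate 2 was 12236 bases for Adcy1 and 6639 bases for Adcy8. Adcy1 was also the gene whose TPM differed most between the mice among the cyclases described here, and its range did not reach that of any other cyclase.

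Adcy2 and Adcy9 belong to other branches of the membrane cyclases: Adcy2 can be stimulated by G protein beta-gamma subunits together with the stimulatory alpha subunit, and Adcy9 is known for its poor response to forskolin. Adcy2, on chromosome 13 from 68620043 to 68999541 on the minus strand, had 58.9 TPM in replicate 2 and 66.2 TPM in replicate 1 (62.6 ± 5.15 TPM, SD, n = 2). Adcy9, on chromosome 16 from 4287529 to 4420498 on the minus strand, had 29.4 TPM in replicate 2 and 36.1 TPM in replicate 1 (32.8 ± 4.74 TPM, SD, n = 2). The ranges did not overlap, and Adcy2 was 2.00-fold above Adcy9 in replicate 2 and 1.83-fold in replicate 1.

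Adcy5, a cyclase inhibited by calcium and by inhibitory G proteins and best known as the main cyclase of the striatum, was above Adcy3, which is known from olfactory neurons and from the primary cilia of neurons. Adcy5, on chromosome 16 from 35154877 to 35305738 on the plus strand, had 50.02 TPM in replicate 2 and 50.75 TPM in replicate 1 (50.4 ± 0.516 TPM, SD, n = 2). Adcy3, on chromosome 12 from 4133103 to 4213525 on the plus strand, had 19.6 TPM in replicate 2 and 23.0 TPM in replicate 1 (21.3 ± 2.37 TPM, SD, n = 2). Adcy5 therefore exceeded Adcy3 by 2.55-fold in replicate 2 and 2.21-fold in replicate 1. The second quantifier put the mean ratio at 1.98.

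Pde2a, a phosphodiesterase of cyclic AMP and cyclic GMP that cyclic GMP stimulates, led the 4 phosphodiesterases. It lies on chromosome 7 from 101421691 to 101512827 on the plus strand and had 142 TPM in replicate 2 and 159 TPM in replicate 1 (150.4 ± 12.5 TPM, SD, n = 2). Pde1a, the calmodulin-dependent enzyme on chromosome 2 from 79834453 to 80129458 on the minus strand, had 61.8 TPM in replicate 2 and 70.7 TPM in replicate 1 (66.3 ± 6.25 TPM, SD, n = 2). The ratio of Pde1a to Pde2a was nearly equal in the mice, at 0.437 in replicate 2 and 0.444 in replicate 1 (0.440 ± 0.00491). It was 0.583 in the second quantifier, which also put Pde1a below Pde2a.

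The cyclic AMP-specific enzymes Pde4b and Pde4d, targets of the inhibitor rolipram, were close together. Pde4b, on chromosome 4 from 102087543 to 102607259 on the plus strand, had 52.25 TPM in replicate 2 and 60.9 TPM in replicate 1 (56.6 ± 6.09 TPM, SD, n = 2). Pde4d, on chromosome 13 from 108449948 to 109953461 on the plus strand, had 44.5 TPM in replicate 2 and 55.7 TPM in replicate 1 (50.1 ± 7.89 TPM, SD, n = 2). The ranges overlapped, although Pde4b was the higher gene within each mouse, by 1.17-fold in replicate 2 and 1.09-fold in replicate 1. The Pde4d locus is the longest of the 10 at 1504 kb, and that of Adcy3 the shortest at 80.4 kb.

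The 6 cyclases made up 93.5% of the TPM of the 10-gene adenylyl cyclase family in replicate 2 and 92.1% in replicate 1 (92.8% ± 0.971). The largest family gene outside them was Adcy6, the closest relative of Adcy5, with 16.85 TPM in replicate 2 and 25.9 TPM in replicate 1, which overlapped the range of Adcy3 and exceeded that of Adcy8. Adcy7 had 1.91 TPM in replicate 2 and 2.13 TPM in replicate 1, and Adcy4 had 1.56 TPM in replicate 2 and 1.53 TPM in replicate 1. Adcy10, the soluble cyclase that bicarbonate stimulates, was scarce, with 12 reads in replicate 2 and 11 in replicate 1.

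By contrast, the 4 phosphodiesterases took 54.8% of the TPM of the 21-gene phosphodiesterase family in replicate 2 and 54.7% in replicate 1 (54.8% ± 0.0791). Pde1b, the calmodulin-dependent paralog of Pde1a, had 64.85 TPM in replicate 2 and 62.5 TPM in replicate 1, and Pde8b, a cyclic AMP-specific enzyme, had 56.0 TPM in replicate 2 and 62.75 TPM in replicate 1. These 2 genes lay between Pde1a and Pde4b by mean TPM and were the only ones outside the 4 that exceeded Pde4d, the lowest of them, by that measure. Pde4a reached a mean of 42.6 ± 5.81 TPM, Pde10a, an enzyme typical of striatal projection neurons, 36.7 ± 8.87 TPM, Pde7b 21.8 ± 4.72 TPM, and Pde7a 13.8 ± 0.941 TPM (SD, n = 2 each). Pde9a (9.41 TPM), Pde5a (6.84 TPM), Pde8a (3.99 TPM), Pde3b (3.53 TPM), Pde1c (2.00 TPM) and Pde11a (1.77 TPM) followed with lower means. Pde4c, Pde3a and the photoreceptor genes Pde6b, Pde6c and Pde6a averaged under 1 TPM. No gene of either family that averaged 100 counts was 2-fold apart between the mice.

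**Figure D2:**
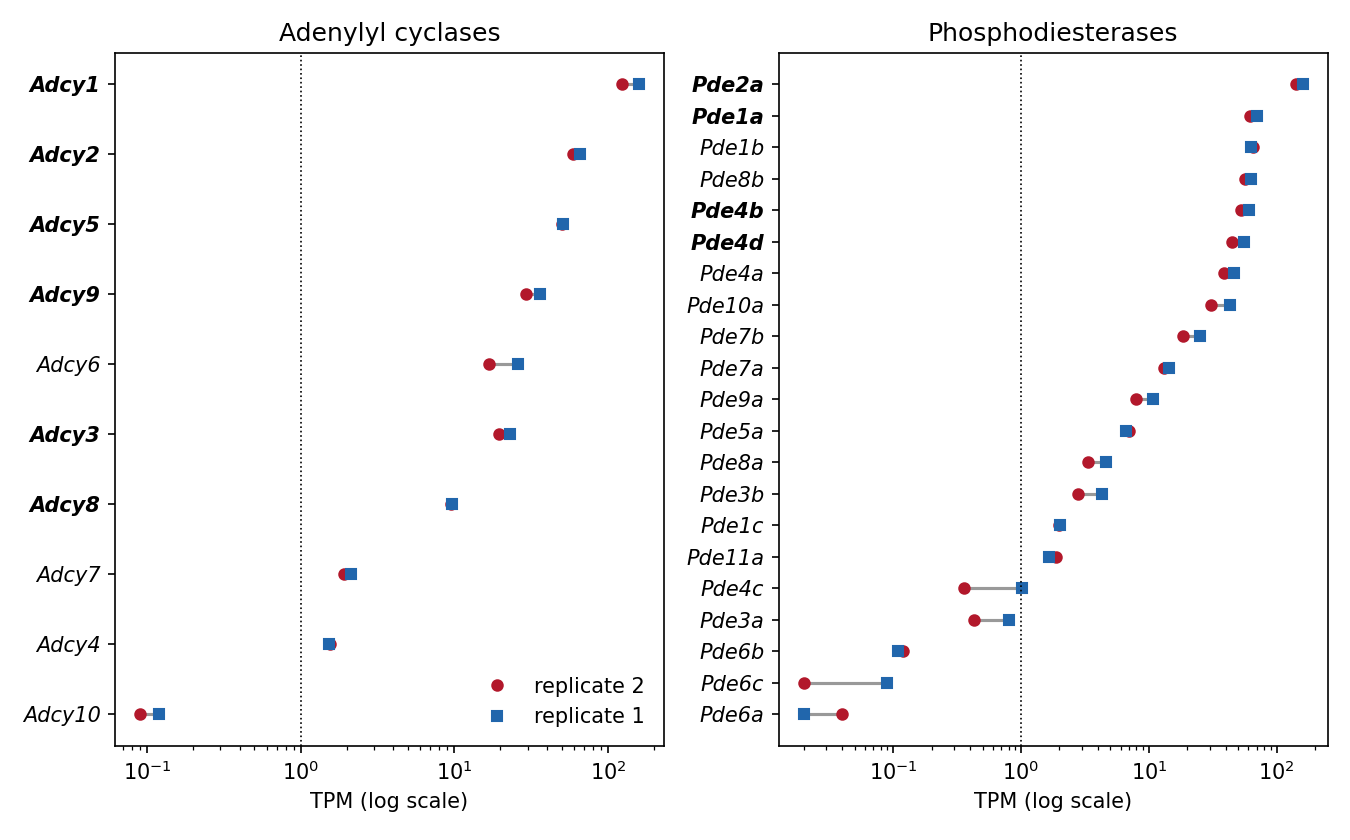
TPM on a log axis for every gene of the 2 families in replicate 2 (red circles) and replicate 1 (blue squares), with the 10 genes described here in bold and a dotted line at 1 TPM. Adcy6 is the one other cyclase within the range of the 6, while Pde1b and Pde8b sit among the 4 phosphodiesterases.

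The 2 mice differed little in these genes on the scale of library-normalized counts. The log2 ratio of replicate 2 over replicate 1 was computed from counts scaled by TMM (trimmed mean of M-values) library sizes, with a 95% interval that covers counting error only. None of the 10 genes was 2-fold apart, and 0.713% of the 12615 genes averaging 100 counts or more were. None was 1.5-fold apart either, against 3.08% of those genes. The ratio was above 0 for 7 of the 10, beside 58.9% of all genes, and below 0 for 3, beside 41.1%. The median ratio was 0.06, where the median of all genes was 0.04, and all 10 ratios lay within the middle 90% of all genes, from −0.35 to 0.35.

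The highest ratios belonged to Adcy8, at 0.24 (0.13 to 0.35), and Adcy5, at 0.23 (0.18 to 0.28). Pde2a followed at 0.13 (0.09 to 0.16) and Adcy2 at 0.07 (0.02 to 0.13), also with intervals above 0. The ratio of Adcy1 was −0.12 (−0.14 to −0.10), with an interval below 0. The share of all genes with an interval away from 0 was not computed. Intervals included 0 for Adcy3 (0.07), Pde1a (0.05), Pde4b (0.03), Adcy9 (−0.04) and Pde4d (−0.07). Counting error is small at these depths, and the spread between animals cannot be estimated for a single pair of mice, so an interval away from 0 describes these libraries. The signs are relative to the other genes: scaled to the spike-ins, the median of all genes was −0.42 and 0 of the 10 ratios were above 0. Among the smaller ratios, those of Adcy9 (0.02) and Pde4d (0.00461) were above 0 in the second quantifier, and that of Pde4b (−0.00718) was below 0 with TMM sizes from protein-coding genes alone.

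**Figure D3:**
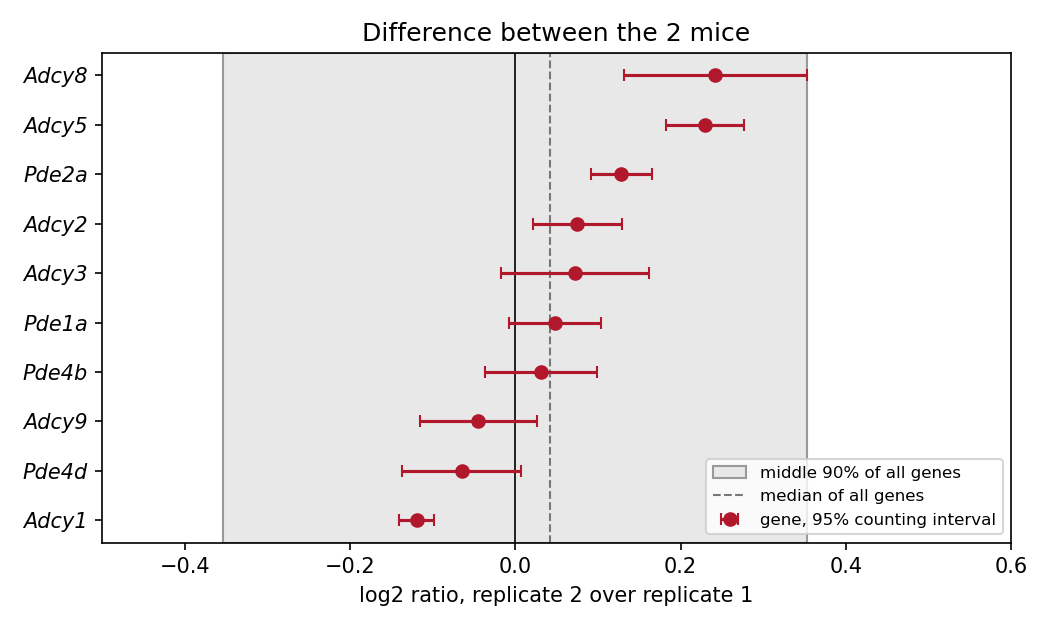
Log2 ratio of replicate 2 over replicate 1 for each gene, with bars for the 95% counting interval, a shaded band for the middle 90% of all 12615 genes and a dashed line for their median. All 10 points fall inside the band, from −0.12 for Adcy1 to 0.24 for Adcy8.

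Markers of the striatum had ratios of the same sign as Adcy5. All 7 were above 0, beside 58.9% of all genes, with a median of 0.51, beside 0.04 for all genes, and summed levels of 189 TPM in replicate 2 and 165 TPM in replicate 1. The ratio was 0.51 for Ppp1r1b and Adora2a, 0.53 for Penk, 0.54 for Gpr6 and 0.40 for Drd2. The counting intervals of Drd1 (0.16, −0.01 to 0.33) and Rgs9 (0.06, −0.10 to 0.21) included 0. None of the 7 was 2-fold apart. Within the phosphodiesterase family the highest ratio among genes with enough counts was that of Pde1b at 0.31, while Pde10a had −0.05. The part of striatal tissue in the Adcy5 and Pde1b values was not tested, and in bulk tissue a different number of cells of a type cannot be told apart from a different amount of RNA per cell.

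The most abundant G protein and protein kinase A subunits exceeded every cyclase in TPM. Of 7 G protein alpha subunits, all had ratios above 0, beside 58.9% of all genes. Their median was 0.16, beside 0.04 for all genes, and none was 2-fold apart. Gnas, the stimulatory subunit, had 773 TPM in replicate 2 and 775 TPM in replicate 1, and Gnao1, the most abundant inhibitory-class subunit in brain, had 298 TPM in replicate 2 and 329 TPM in replicate 1. Gnaz (50.6 ± 1.44 TPM) and Gnai3 (10.9 ± 0.0141 TPM) were the lowest of that list (SD, n = 2 each). Among 9 genes for protein kinase A subunits and inhibitors, 8 had ratios above 0, beside 58.9% of all genes, with a median of 0.17. The regulatory subunits Prkar1b (352 ± 3.71 TPM) and Prkar1a (243 ± 17.9 TPM) led, and Prkar2a (19.0 ± 0.629 TPM) and the inhibitor Pkib (4.41 ± 0.686 TPM) were lowest (SD, n = 2 each).

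Of 7 other cyclic AMP effectors, the 6 with enough counts all had ratios below 0, beside 41.1% of all genes. Their median was −0.08, beside 0.04 for all genes, and none was 2-fold apart. Rapgef4, which encodes Epac2, had 185 TPM in replicate 2 and 240 TPM in replicate 1, and Crtc1, a coactivator of CREB, had 47.1 TPM in replicate 2 and 58.2 TPM in replicate 1. Crtc2 averaged 13.75 ± 0.099 TPM, and Popdc3 had 9 reads in replicate 2 and 11 in replicate 1. The 10 A-kinase anchoring proteins, which tether protein kinase A, had 3 ratios above 0 and 7 below, with a median of −0.06. Of all genes, 41.1% had ratios below 0. Akap6 (77.9 ± 10.5 TPM) and Akap11 (71.4 ± 8.89 TPM) were highest, and Akap13 (9.44 ± 3.36 TPM) and Akap12 (7.13 ± 0.594 TPM) lowest (SD, n = 2 each). Of 8 guanylyl cyclase genes, which supply the cyclic GMP that Pde2a and Pde1a act on, 4 had at least 1 TPM in both libraries. The soluble subunits Gucy1b1 (70.7 ± 5.37 TPM) and Gucy1a2 (40.6 ± 3.92 TPM) led them, and Gucy2f (0.140 TPM) and Gucy2c (0.130 TPM) were lowest.

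The 10 genes have 74 annotated transcripts, 44 of them protein-coding, and 6 genes had a single transcript with at least 50% of the gene's TPM in both mice. Those were Adcy1, Adcy2, Adcy5, Adcy8, Adcy9 and Pde1a, whereas TPM was divided in Adcy3, Pde2a, Pde4b and Pde4d. Adcy1-201, which encodes 1118 residues, held 99.7% of Adcy1 in replicate 2 and 99.8% in replicate 1. Adcy5-201, with 1262 residues, held 97.9% of Adcy5 in replicate 2 and 97.4% in replicate 1. Adcy2 has 1 annotated transcript, of 1095 residues, so its place in this count and the next was fixed by the annotation. Adcy1 and Adcy5 have 2 annotated transcripts each. The same counts over all genes were not made. The first and second quantifiers named the same leading transcript for 7 genes, with Adcy3, Adcy9 and Pde2a as the exceptions. Among transcripts annotated as protein-coding alone, they named the same leading coding sequence for all 10. For Adcy1, Adcy2 and Adcy5 this was fixed in advance, because each has only 1 such sequence. The protein-coding rule leaves out Pde2a-209 and Pde1a-210, both described below. The leading coding sequence of Pde2a was close to the next in the first quantifier, with means of 26.4% for Pde2a-204 and 24.5% for Pde2a-201.

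Some of the divided transcripts differ by a short segment of coding sequence, shown here because each one changes the coding sequence. Capitals mark the segment, and the lower-case letters on each side are the adjoining 24 bases of the spliced GENCODE transcript (mm10, transcript strand).
Adcy3, 3-base acceptor: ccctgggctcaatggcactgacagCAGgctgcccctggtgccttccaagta
Adcy8, 90-base exon: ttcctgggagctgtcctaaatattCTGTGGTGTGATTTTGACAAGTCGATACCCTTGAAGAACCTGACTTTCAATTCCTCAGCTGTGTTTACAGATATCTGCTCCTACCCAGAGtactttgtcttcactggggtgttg
Pde2a, 12-base acceptor: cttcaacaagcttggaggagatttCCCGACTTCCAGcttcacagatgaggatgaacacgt
Pde2a, 62-base exon: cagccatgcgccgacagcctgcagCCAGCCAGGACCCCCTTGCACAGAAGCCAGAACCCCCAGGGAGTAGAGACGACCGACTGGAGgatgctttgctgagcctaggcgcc

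The 90-base exon of Adcy8 lies at chr15:64744841-64744930 and is in frame, separating the 1249-residue Adcy8-201 from the 1219-residue Adcy8-202. Transcripts with it made up 72.5% of the TPM assigned to these 2 transcripts in replicate 2 and 71.9% in replicate 1 (72.2% ± 0.435). The second quantifier gave 72.9% in replicate 2 and 75.6% in replicate 1. Adcy8-203, a transcript with a retained intron, took 11.96% of the gene's TPM in replicate 2 and 16.8% in replicate 1, on 119 and 126 expected counts in the same order of mice. Nuclear noncoding RNAs were also lower in replicate 2, as given above, and their part in the Adcy8-203 share was not tested. The summed share of retained-intron transcripts was also lower in replicate 2 for Adcy5, Pde2a, Pde4b and Pde4d in the first quantifier. These shares rest on few expected counts. In the same order of mice, Adcy5 had 7.25 and 6.83, Pde2a 86.65 and 90.51, Pde4b 64.61 and 69.81, and Pde4d 66.32 and 84.18. Within Pde4d, Pde4d-212 had 0 in replicate 2 and 40.35 in replicate 1. For Adcy3 the summed share was higher in replicate 2, at 16.5% against 15.6% in replicate 1. In the second quantifier this share was higher in replicate 2 for both Adcy3 and Adcy5.

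In Adcy3 a choice between acceptor sites adds or omits 3 bases at chr12:4208577-4208579, an in-frame change between 1145 and 1144 residues. Transcripts with the 3 bases took 44.0% of the TPM that could be divided in replicate 2 and 48.1% in replicate 1 (46.0% ± 2.90). The second quantifier gave 45.4% in replicate 2 and 48.3% in replicate 1. The transcripts with the 3 bases include Adcy3-208, which has a retained intron and no coding sequence. It held 12.1% of the gene's TPM in replicate 2 and 9.61% in replicate 1. The 1145-residue sequence held 29.95% in replicate 2 and 34.9% in replicate 1. The 1144-residue sequence held more, 53.5% in replicate 2 and 48.1% in replicate 1, and also led in the second quantifier. At the level of whole transcripts Adcy3 was less settled. Adcy3-207 held 29.9% in replicate 2 and 30.1% in replicate 1, Adcy3-201 27.5% in replicate 2 and 30.4% in replicate 1, and Adcy3-202 23.7% in replicate 2 and 18.0% in replicate 1, so a different transcript led in each mouse.

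Adcy9 divided between coding sequences of 1353 and 1116 residues. The longer one took 60.1% of the gene's TPM in replicate 2 and 66.0% in replicate 1, and the shorter one, Adcy9-203, took 39.9% in replicate 2 and 34.03% in replicate 1. The first quantifier placed nearly all of the longer sequence on Adcy9-202, with a deposited posterior SD of 308 counts on 1970 expected counts in replicate 2, while the second placed 47.0% of the gene on Adcy9-201 in replicate 2 and 48.4% in replicate 1. These transcripts encode the same protein and differ outside the coding sequence, and the share of the 1353-residue sequence in the second quantifier was 52.0% in replicate 2 and 55.6% in replicate 1. Pde1a was divided in a similar way. Pde1a-206 held 75.6% in replicate 2 and 77.6% in replicate 1 in the first quantifier, against 53.2% in replicate 2 and 45.0% in replicate 1 in the second. Pde1a-204 held 17.4% in replicate 2 and 13.4% in replicate 1 in the first quantifier, and 37.9% in replicate 2 and 34.9% in replicate 1 in the second. The 545-residue coding sequence it shares with 2 other transcripts held 92.9% in replicate 2 and 91.0% in replicate 1 in the first quantifier, and 91.1% in replicate 2 and 79.9% in replicate 1 in the second. This share leaves out Pde1a-210, which also has 1635 coding bases but is annotated as a target of nonsense-mediated decay. Pde1a-210 held 0% in both mice in the first quantifier, and 1.70% in replicate 2 and 10.3% in replicate 1 in the second.

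Pde2a showed 1 segment on which the quantifiers were close and 1 on which they were far apart. The 12-base acceptor segment at chr7:101503287-101503298, which is in frame, was present in 28.8% of the divisible TPM in replicate 2 and 26.1% in replicate 1 (27.4% ± 1.90), and in 25.5% in replicate 2 and 26.4% in replicate 1 by the second quantifier. The 62-base exon at chr7:101461480-101461541 is not in frame and belongs mainly to Pde2a-209, annotated as a target of nonsense-mediated decay, the pathway that removes transcripts with early stop codons. It was present in 39.3% in replicate 2 and 44.9% in replicate 1 (42.1% ± 3.93) by the first quantifier, against 2.84% in replicate 2 and 7.78% in replicate 1 by the second. Pde2a-209 was the leading Pde2a transcript in the first quantifier, with 35.8% of the gene's TPM in replicate 2 and 39.7% in replicate 1, and had 2.79% in replicate 2 and 7.62% in replicate 1 in the second. The protein-coding Pde2a-204 led in the second quantifier with 51.0% in replicate 2 and 41.8% in replicate 1, against 28.6% in replicate 2 and 24.3% in replicate 1 in the first.

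**Figure D4:**
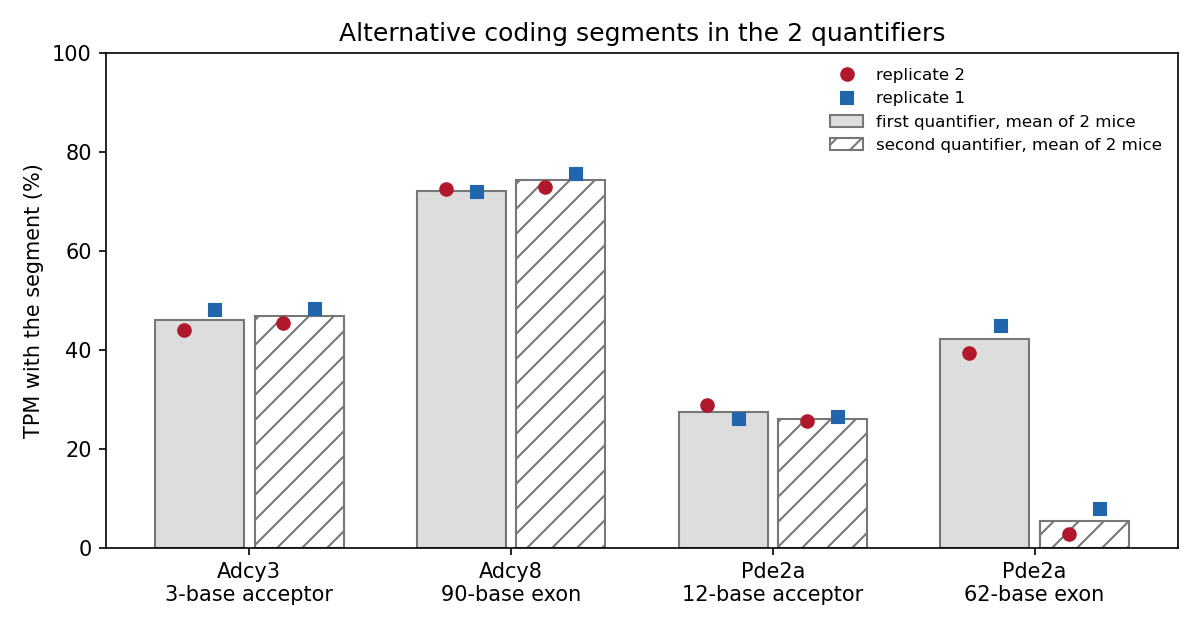
Percent of TPM carrying each coding segment, out of the transcripts that either include or omit it, with plain bars for the first and hatched bars for the second quantifier (means of 2 mice), red circles for replicate 2 and blue squares for replicate 1. The quantifiers lie close together for the first 3 segments and far apart for the 62-base exon of Pde2a, at 42.1% and 5.31%.

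The phosphodiesterase genes also differ in where their transcripts begin, and the first coding bases show how little the alternative starts share. In Pde2a, alternative first exons give amino termini that in rodents direct the enzyme to different membranes. In Pde4b and Pde4d, long forms carry regulatory upstream conserved regions that short forms lack in part or whole. The first 60 coding bases of the leading coding transcripts are given with the start codon in capitals (GENCODE, mm10). Those of Pde4b-202 and Pde4b-208 run over an intron, after 48 and 42 bases.
Pde2a-201: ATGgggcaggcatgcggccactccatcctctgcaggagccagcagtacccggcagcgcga
Pde2a-204: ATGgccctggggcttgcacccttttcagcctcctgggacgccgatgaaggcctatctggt
Pde4b-207: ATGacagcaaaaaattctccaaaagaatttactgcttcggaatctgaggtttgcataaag
Pde4b-202: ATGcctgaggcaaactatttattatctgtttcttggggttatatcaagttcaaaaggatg
Pde4b-208: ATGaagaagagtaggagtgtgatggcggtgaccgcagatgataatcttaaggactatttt
Pde4d-207: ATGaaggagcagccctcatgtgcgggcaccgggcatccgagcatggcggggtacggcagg

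In Pde4b the 721-residue Pde4b-207 led with 46.8% of the gene's TPM in replicate 2 and 46.5% in replicate 1, and with 41.3% in replicate 2 and 39.8% in replicate 1 by the second quantifier. The 503-residue Pde4b-202, whose start lies downstream on chromosome 4, held 17.6% in replicate 2 and 18.1% in replicate 1, and the second quantifier placed it at 16.7% in replicate 2 and 16.6% in replicate 1. These shares differed by less than 2 percentage points between the mice. The 736-residue Pde4b-208 took 7.54% in replicate 2 and 8.20% in replicate 1 by the first quantifier, and 12.7% in replicate 2 and 14.1% in replicate 1 by the second. A short retained-intron transcript, Pde4b-211, held 12.1% in replicate 2 and 13.9% in replicate 1 on 60.2 and 59.6 expected counts in that order of mice.

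Pde4d was the gene with most transcripts, 20, and its leading one was the 584-residue Pde4d-207, which starts near the downstream end of the locus. It held 40.4% in replicate 2 and 41.9% in replicate 1, and 39.2% in replicate 2 and 41.5% in replicate 1 by the second quantifier. Behind it the quantifiers ordered the long transcripts differently. Pde4d-205, with 703 residues, took 14.9% in replicate 2 and 10.6% in replicate 1 in the first quantifier and 2.23% in replicate 2 and 0% in replicate 1 in the second. Pde4d-218 took 5.23% in replicate 2 and 4.51% in replicate 1 in the first, and 27.8% in replicate 2 and 22.6% in replicate 1 in the second.

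The sequence before the starts of these genes differed in its content of CpG, the dinucleotide at which DNA is methylated. RefSeq promoter windows (GRCm38.p6) were at hand for 9 of the 10 genes, all but Adcy8, giving 20 windows of 250 bases before a start, of which 11 ended at a GENCODE start of the same gene. The windows of Adcy2-201 and Pde2a-204 are printed with each CpG in capitals because both end exactly at the start of a transcript measured here and they show the contrast. They lie at chr13:68999542-68999791 on the minus strand and chr7:101450270-101450519 on the plus strand.
Adcy2-201: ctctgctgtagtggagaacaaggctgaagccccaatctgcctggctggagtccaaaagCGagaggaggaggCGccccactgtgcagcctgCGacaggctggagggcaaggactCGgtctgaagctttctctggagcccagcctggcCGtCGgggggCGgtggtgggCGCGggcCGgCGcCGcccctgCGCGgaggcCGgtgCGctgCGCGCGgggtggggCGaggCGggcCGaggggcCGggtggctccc
Pde2a-204: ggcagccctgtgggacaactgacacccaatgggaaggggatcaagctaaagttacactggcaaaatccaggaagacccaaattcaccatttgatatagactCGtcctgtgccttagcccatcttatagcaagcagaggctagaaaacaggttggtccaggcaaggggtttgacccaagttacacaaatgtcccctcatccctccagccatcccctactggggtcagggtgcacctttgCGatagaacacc

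The Adcy2 window holds 23 CpGs and the Pde2a-204 window 2. Across all 32817 windows of that table the median was 6 CpGs, and the middle part of the distribution ran from 2 to 16 between the quartiles. Of 6 cyclase windows 5 lay above that upper quartile, with a median of 26.5 CpGs, and of 14 phosphodiesterase windows 1 did, with a median of 2.5. Windows of 1 gene can lie near each other, and 2 of Pde2a overlap, so they are not independent. The half-site of the cyclic AMP response element, TGACG or CGTCA on either strand, was in 3 of the 20 windows, 1 each of Pde1a, Pde4b and Adcy9, and in 17.7% of all windows. The full element TGACGTCA, which contains the half-site on both strands, was in none of the 20 and in 1.55% of all windows. The leading starts of Adcy1, Adcy5, Adcy9, Pde1a, Pde4b and Pde4d are not among the windows matched to GENCODE, nor is that of Pde2a in the first quantifier. The windows of Adcy1 (26 CpGs) and Adcy5 (32 CpGs) do not end at a GENCODE start. In replicate 2 the matched starts of Pde1a, Pde4b and Pde4d each held from 0% to 5.50% of their gene's TPM. Those of Adcy2, Adcy3 and Adcy9 held from 27.5% to 100%. The matched starts of Pde2a held 26.3% for Pde2a-201, 28.6% for Pde2a-204 and 2.26% for Pde2a-207, with 2, 2 and 6 CpGs in that order. Pde2a-201 and Pde2a-204 were thus near Adcy3-201 (27.5%, 6 CpGs) in use. The family contrast in CpG therefore compares windows at starts of partly unlike use, and some of its windows match no measured start.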

How the data were processed

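Total RNA-seq gene and transcript tables of 2 libraries, 1 for each mouse, were used. Per the labels the genome build is mm10, and per the deposited notes the annotation is GENCODE M21. The strand setting of the counting, like the aligner and all versions, was not given in the sources used here, so reads from antisense partners at Adcy2 and Adcy3 may not be separable. The labels name separate animals, which share 1 donor record. Per the file headers, the authors deposited for each gene and transcript an expected count, TPM, FPKM, a posterior standard deviation of the count (a score in reads) and, for transcripts, the percent of the gene's TPM. A second deposited transcript table holds an estimated count and TPM from a second quantifier. Reads were assigned to the C57BL/6J reference, although the mice also carry CAST/EiJ alleles; whether such alleles lost reads was not tested.

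The 10 genes, the gene lists, the pairs and the alternatives were chosen with earlier results of these data known. Named are all 10 genes, each gene of both families, the 2 highest and 2 lowest genes by TPM of each other pathway list, transcripts with at least 10% of a gene's TPM in both libraries, and 5 pairs. Pde4b-208, Pde4d-218, Adcy9-201 and the 4 segments were picked after their values were seen. Lists of cell markers are given as counts, medians and sums, except the striatum list, for which each gene's ratio is also given.

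Expected counts of the 10 genes were whole numbers, and other counts were rounded. Ratios are log2 of replicate 2 over replicate 1 in CPM with a prior count of 2 and TMM sizes (edgeR 4.0.16, R 4.3.3). The 95% intervals come from the exact Clopper-Pearson bounds on the fraction of a gene's reads found in replicate 2. They cover counting error only, because they use just the reads of 1 library for each mouse. No molecular identifiers were counted, so reads copied from 1 molecule could not be told apart and the intervals may be too narrow. No test was run, because 1 group of 2 mice allows none. A transcript's share is its TPM divided by the summed TPM of its gene, and a segment's share is the TPM of transcripts with it over that of transcripts with or without it. Alternatives were DESeq2 1.42.0 size factors, spike-in scaling, other thresholds, FPKM, and the second quantifier. The ratio step was tested on simulated data. Tables and figures were made in Python 3.11.15 (matplotlib 3.10.9, pandas 2.3.3, numpy 2.4.6, scipy 1.17.1). Annotated genes overlapping the 10 loci numbered 16 and together held 284 counts in replicate 2 and 303 in replicate 1.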

Additional observations from a re-analysis of the deposited data

How the results depend on the processing

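All 10 genes stayed expressed at a minimum of 5 TPM, in the second quantifier and with either mouse alone, and 0 of 10 were 2-fold apart under every scaling, threshold and filter tried. The count of neighbouring genes with separate ranges was 7 with rescaled TPM, 8 with the second quantifier and 8 with FPKM, against 5 as reported. Spike-in scaling put the median ratio of the 10 genes at −0.41, against 0.06, and left 0 of 10 ratios above 0. It moved the median of all genes to −0.42, so the 10 genes stayed 0.02 above that median. In the second quantifier 9 ratios were above 0, and with protein-coding genes alone in the TMM scaling, an alternative chosen after seeing the data, 6 were. Genes with a leading transcript past 50% numbered 4 in the second quantifier and 8 by share of counts, against 6. The count stayed at 6 without either replicate, and the same leading transcript in both quantifiers stayed at 7. For the 5 level pairs, the second quantifier moved 2 ratios by more than the SD and uncorrected counts moved 3. Of the 4 segments, also compared after seeing the data, 2 moved by more than the SD in the second quantifier: the 62-base exon of Pde2a, to 5.31% against 42.1%, and the 90-base exon of Adcy8, to 74.2% against 72.2%. No paired analysis was possible because the libraries form 1 group. With 2 mice the SD itself is poorly known, and transcripts that differ by few bases share most reads, which limits their shares at any depth.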
